A study of Mus musculus with 15 samples.

Results

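The genes described here are 37 members of the hypoxia response and of glycolysis, the conversion of glucose to lactate. They were chosen by symbol from the 50508 gene symbols of the count table, as glycolytic enzymes and transporters and known targets or regulators of the hypoxia-inducible factor HIF, and all 37 had counts enough to be tested in every comparison. The list was drawn up with earlier results of these data known. Its counts beside the share of all genes are therefore description, not an independent test. RNA was sequenced from myeloid cells sorted out of mouse tumours grown for 10 days from LLC cells, a Lewis lung carcinoma line. The tumours were of Mock-LLC or of SULT2B1b-LLC, which carries SULT2B1b, a sulfotransferase that sulfates cholesterol and oxysterols. The sorted populations were Ly6Clow cells and Ly6Chigh CD11c+ MHC-II+ cells, which gave 4 Mock-LLC Ly6Clow, 3 SULT2B1b-LLC Ly6Clow, 4 Mock-LLC Ly6Chigh and 4 SULT2B1b-LLC Ly6Chigh libraries. Ly6Clow cells of SULT2B1b-LLC tumour 1 were not analysed here. Strain and age of the mice, the promoter that drives SULT2B1b and whether the LLC cells are a clone are not stated in the labels. They number the tumours, which makes the libraries of a group separate tumours, but do not say whether each came from its own mouse.

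HIF is made continuously and, where oxygen is plentiful, is hydroxylated by the EGLN prolyl hydroxylases and degraded. Where oxygen is scarce, HIF1A persists, pairs with ARNT and binds ACGTG or GCGTG in its target genes, which include the glucose transporter SLC2A1, nearly every glycolytic enzyme, the lactate exporter SLC16A3 and the angiogenic factor VEGFA. Macrophages and monocytes in tumours meet low oxygen, and inflammatory activation can also raise HIF1A and glycolysis in them.

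Depth differed between the populations, with 19792494 to 39284008 counts in the Ly6Clow libraries and 2617878 to 10626954 in the Ly6Chigh libraries. Replicates correlated at a median r of 0.9797 to 0.9867 in Ly6Clow and 0.8293 to 0.9222 in Ly6Chigh cells, on log2 levels over genes. Among Ly6Chigh libraries that of SULT2B1b-LLC tumour 1 differed from the rest, with the fewest counts, 24540 genes with a count and 9.83% of counts on unnamed gene models. The Ly6C gene Ly6c2 lay at 970.5 to 1801 CPM (counts scaled to a common library size) in Mock-LLC and 1301 to 2111 in SULT2B1b-LLC Ly6Chigh cells, against 19.25 to 34.39 and 19.78 to 32.57 in Ly6Clow cells, and Itgax, which encodes CD11c, and the MHC class II gene H2-Ab1 were counted in every library. Sult2b1 was at 0 to 0.51 CPM in the sorted cells of Mock-LLC tumours and at 1.12 to 2.39 CPM in Ly6Clow and 9.31 to 19.1 CPM in Ly6Chigh cells of SULT2B1b-LLC tumours, and where this RNA came from was not tested. In bulk samples such as these, fewer cells of a type and less RNA per cell cannot be told apart.

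In Ly6Clow cells, glycolysis and hypoxia genes were lower in SULT2B1b-LLC than in Mock-LLC tumours. Of the 37 genes 19 fell and 0 rose at an adjusted p under 0.05 (edgeR quasi-likelihood test, Benjamini-Hochberg over 14641 genes), where 1.17% of all genes tested fell, 1.71% rose and 2.88% passed in either direction. Their fitted falls ran from 1.30-fold for the isomerase Gpi1 to 3.00-fold for the prolyl hydroxylase Egln3. All 3 SULT2B1b-LLC libraries lay below all 4 Mock-LLC libraries for 27 of the 37, against 8.44% of all genes, and for 0 of the 37 did they lie above, against 7.35%. The median log2 fold change was -0.51 over the 37 genes and -0.01 over all genes tested. The 37 genes together took 1.5% to 1.62% of the counts of a Mock-LLC Ly6Clow library and 1.08% to 1.16% of a SULT2B1b-LLC Ly6Clow library. This fit used the 7 Ly6Clow libraries alone, since the spread per gene differed between populations (a typical biological coefficient of variation of 0.283 in Ly6Clow and 0.694 in Ly6Chigh cells). That replicates agreed better in Ly6Clow cells was known from earlier work on these data when this fit was chosen. With the spread shared over all 15 libraries 2 genes fell, Bnip3 and Pgk1, and the median was -0.52. The count was 9 without the library of SULT2B1b-LLC tumour 2, also 9 without tumour 3, 11 without Mock-LLC tumour 3 and 12 without Mock-LLC tumour 2. Since no share of all genes is set beside these counts, they do not show whether the 37 lost more calls than other genes.

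**Figure D1:**
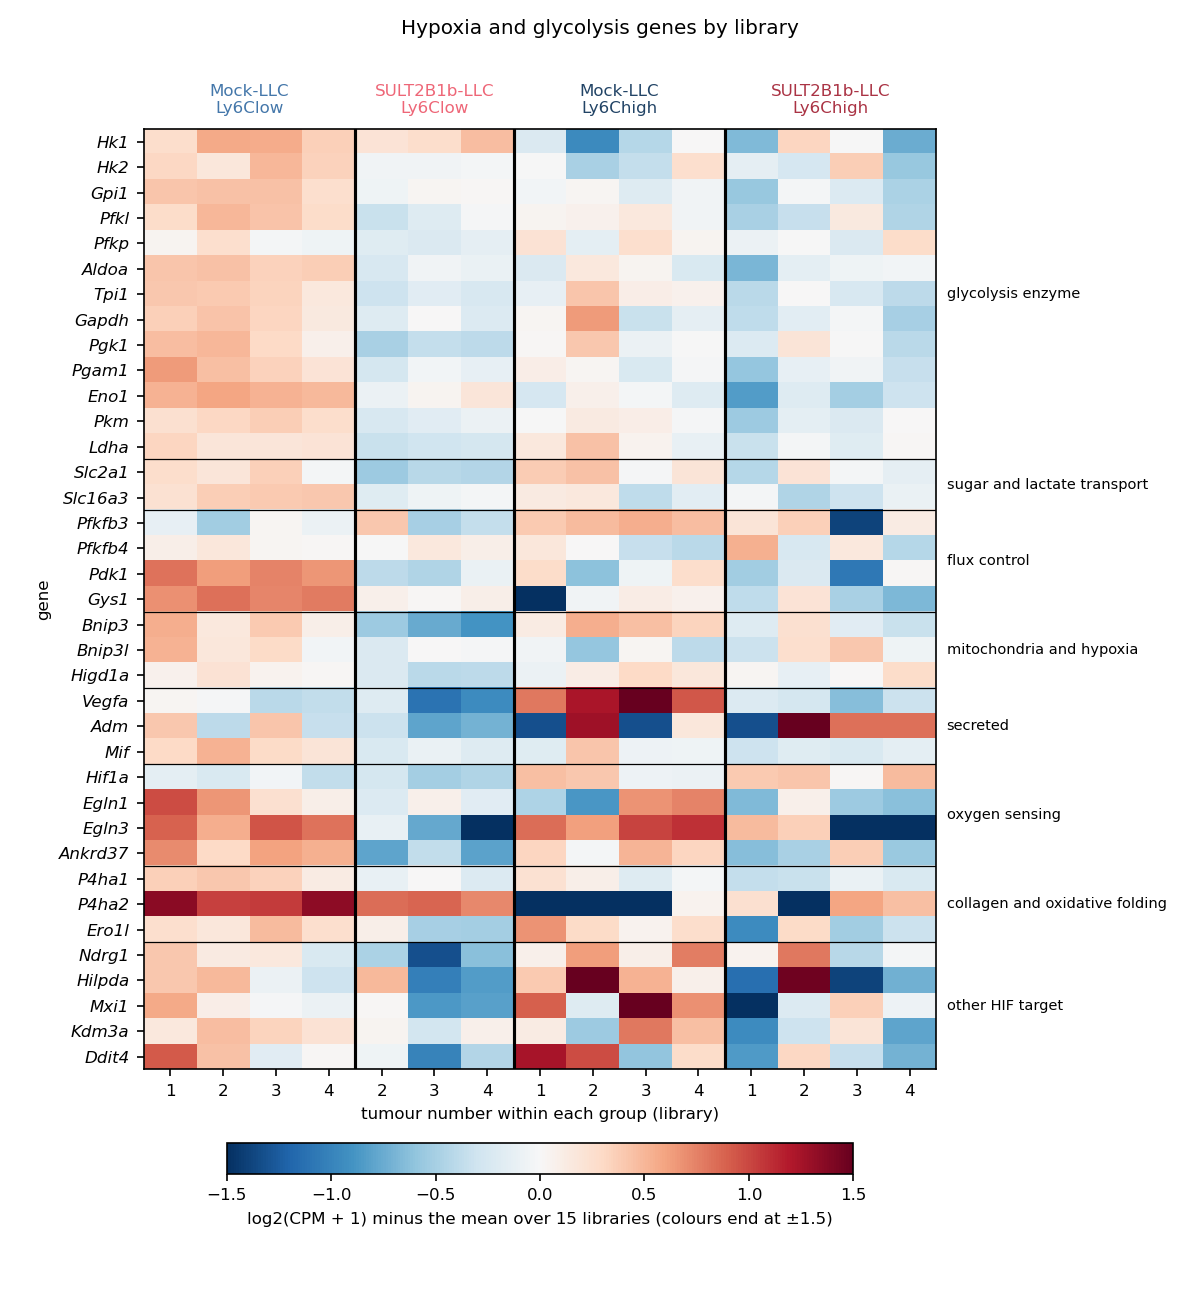
Level of each of the 37 genes (rows, grouped by role) in each of the 15 libraries (columns, by group and tumour number), as log2(CPM + 1) minus the gene's mean over the libraries. The Mock-LLC Ly6Clow columns are above the mean for most enzymes and the SULT2B1b-LLC Ly6Clow columns below it, while the Ly6Chigh columns vary more from library to library, most of all for P4ha2, Adm, Egln3, Hilpda and Mxi1.

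Among the 13 glycolytic enzymes 10 fell in Ly6Clow cells of SULT2B1b-LLC tumours. Pgk1 (chromosome X, 106187100 to 106203699, GRCm38), the kinase of the first ATP-yielding step, was at 229.8, 234.3, 205.5 and 175.6 CPM in Mock-LLC tumours 1 to 4 and at 118.1, 129.6 and 126.5 CPM in SULT2B1b-LLC tumours 2 to 4. The groups did not overlap, and the log2 fold change was -0.75 ± 0.11 (SE, adjusted p = 0.00802). Ldha (chromosome 7, 46841475 to 46855627), which makes lactate from pyruvate, was at 1866, 1686, 1693 and 1719 CPM in Mock-LLC and 1180, 1213 and 1239 CPM in SULT2B1b-LLC tumours. Its groups were far apart beside their spread, with a log2 fold change of -0.51 ± 0.06 (adjusted p = 0.00261).

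Aldoa, the aldolase that splits the 6-carbon sugar, was at 2894, 2950, 2769 and 2801 CPM in Mock-LLC and 1837, 2093 and 2020 CPM in SULT2B1b-LLC tumours. It was the member with the highest level in CPM per kb of exon in all 4 groups, at 980 ± 28.6 (SD, n = 4) in Mock-LLC and 681 ± 45.4 (n = 3) in SULT2B1b-LLC Ly6Clow cells. Tpi1, the triose isomerase, was at 1042, 1035, 988.2 and 875.7 CPM against 635.3, 700.3 and 666.6 CPM, and Pkm, the pyruvate kinase, at 2118, 2221, 2306 and 2155 CPM against 1512, 1594 and 1677 CPM. Neither of these overlapped between tumour types, and the log2 fold changes of Aldoa, Tpi1 and Pkm were -0.51, -0.55 and -0.45 with adjusted p from 0.00417 to 0.00802. Eno1, the enolase, had 1552, 1626, 1551 and 1509 CPM in Mock-LLC and 1013, 1116 and 1221 CPM in SULT2B1b-LLC tumours. Pfkl, the liver-type phosphofructokinase, had 343.7, 401.4, 384.7 and 344.6 CPM against 225.0, 249.5 and 281.8 CPM. Gpi1, Gapdh and Pgam1 fell as well, each of them in 1 of the 7 fits with a library left out, and none of the 10 enzymes that fell had a Mock-LLC library at or below a SULT2B1b-LLC library. The count of 10 was 3 without the library of SULT2B1b-LLC tumour 2, 4 without tumour 3, 6 without Mock-LLC tumour 2 or 3, and 1 (Pgk1) with the spread shared over all 15 libraries.

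The 3 enzymes that did not pass the test were the hexokinases Hk1 and Hk2, which trap glucose as its phosphate, and the platelet-type phosphofructokinase Pfkp. Hk2 was at 120.7, 109.5, 137.5 and 124.1 CPM in Mock-LLC and 93.55, 93.62 and 95.67 CPM in SULT2B1b-LLC tumours, which did not overlap, with a log2 fold change of -0.37 and an adjusted p of 0.0707. Hk1 overlapped, at 128.8 to 159.6 CPM against 123.9 to 147.7 CPM. Pfkp was at 249.0 to 309.2 CPM against 224.2 to 237.4 CPM, with a log2 fold change of -0.22 and an adjusted p of 0.313.

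Summed over the 13 enzymes, the level was 12890 ± 448.9 CPM (SD, n = 4) in Mock-LLC and 9200 ± 453.5 CPM (n = 3) in SULT2B1b-LLC Ly6Clow cells, with ranges that did not meet. Gapdh has near-identical copies in 145 other annotated genes, whose own counts came to 13.6% of those of Gapdh, so its value is uncertain. Without it the sums were 11410 ± 329.7 and 8123 ± 418.6 CPM.

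**Figure D2:**
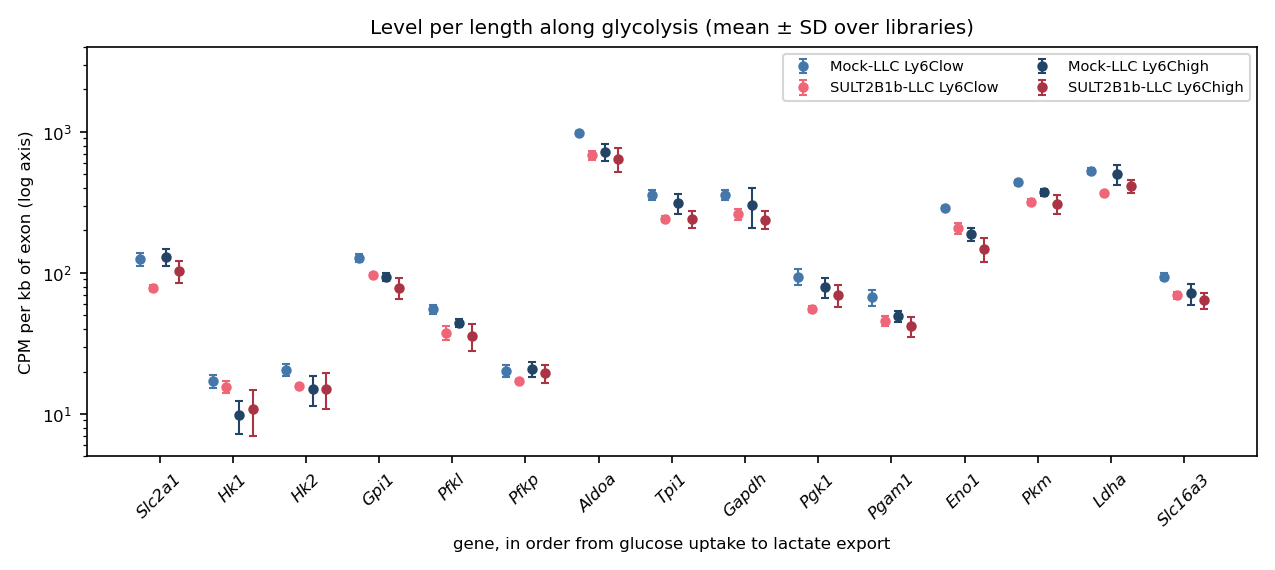
Mean level per kb of exon (log axis) with SD over libraries, for the transporters and the 13 enzymes in pathway order, in the 4 groups. Along the pathway the SULT2B1b-LLC Ly6Clow means lie below those of Mock-LLC Ly6Clow at every step, from 78.6 against 125 CPM per kb at Slc2a1 to 366 against 526 at Ldha.

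Both transporters fell in Ly6Clow cells. Slc2a1 (chromosome 4, 119108711 to 119137983), the main inducible glucose importer, was at 455.8, 432.6, 488.3 and 373.6 CPM in Mock-LLC and 260.5, 286.0 and 280.4 CPM in SULT2B1b-LLC tumours, with a log2 fold change of -0.65 ± 0.10 (adjusted p = 0.00802). Slc16a3, the lactate exporter, was at 461.8, 507.7, 515.7 and 519.3 CPM against 347.5, 375.7 and 386.9 CPM, with a log2 fold change of -0.42 ± 0.08 (adjusted p = 0.0205). Neither gene overlapped between the tumour types. Slc2a1 passed in 6 and Slc16a3 in 2 of the 7 fits with a library left out. Neither passed without the library of SULT2B1b-LLC tumour 2 or with the spread shared over all 15 libraries.

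Genes that set the direction of carbon flow split. Pdk1 (chromosome 2, 71873224 to 71903858), a kinase that inactivates pyruvate dehydrogenase, which turns pyruvate into acetyl-CoA, had the smallest adjusted p of the 37 genes. It was at 157.6, 138.0, 150.3 and 141.9 CPM in Mock-LLC and 67.53, 64.65 and 83.24 CPM in SULT2B1b-LLC tumours, a log2 fold change of -1.02 ± 0.11 (adjusted p = 0.00182). Gys1, the glycogen synthase of most tissues, was at 59.15, 64.95, 61.15 and 62.94 CPM against 38.39, 36.67 and 38.68 CPM (log2 fold change -0.70, adjusted p = 0.00441). The groups of both genes did not overlap. Gys1 shares 6.47% of its exon bases with Ruvbl2, which had 19784 counts over all libraries against 12764 of Gys1, so its value is uncertain to that extent. Pfkfb3 and Pfkfb4, which make the activator of phosphofructokinase, did not follow. Pfkfb4 was at 183.3 to 204.0 CPM in Mock-LLC and 180.5 to 202.4 CPM in SULT2B1b-LLC tumours, and the 95% interval of its log2 fold change was -0.15 to 0.19. Pfkfb3 was at 86.27 to 126.9 CPM against 165.4, 87.72 and 96.97 CPM in SULT2B1b-LLC tumours 2 to 4, with an interval of -0.41 to 0.59. Its tumour 2 value was above every Mock-LLC library and the other values lay within the Mock-LLC range.

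Of the mitochondrial hypoxia genes, Bnip3 fell. Bnip3 (chromosome 7, 138890836 to 138909519), a receptor that marks mitochondria for autophagy, was at 64.07, 48.73, 57.43 and 46.22 CPM in Mock-LLC and 29.56, 25.46 and 22.88 CPM in SULT2B1b-LLC tumours, a log2 fold change of -1.04 ± 0.14 (adjusted p = 0.00676). Its paralogue Bnip3l overlapped between tumour types, at 43.62 to 64.80 CPM against 38.51 to 44.92 CPM. Higd1a, a mitochondrial inner membrane protein, was at 36.20 to 41.71 CPM against 26.72 to 30.64 CPM, with an adjusted p of 0.0947. The kit does not mark strand, and the antisense gene Gm45507 that overlaps 22.3% of the exon bases of Bnip3 held 1 count in all libraries.

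The oxygen-sensing gene Egln3 and the HIF target Ankrd37 had the largest fitted falls among the 19 genes that passed. Egln3 (chromosome 12, 54178981 to 54203860), a HIF prolyl hydroxylase that is itself a HIF target, was at 39.14, 30.55, 40.56 and 37.13 CPM in Mock-LLC and 19.12, 11.72 and 5.67 CPM in SULT2B1b-LLC tumours 2 to 4. All were below Mock-LLC but they differed among themselves, and the log2 fold change was -1.59 ± 0.34 (adjusted p = 0.0473). Egln3 passed in 2 of the 7 fits with a library left out. Ankrd37, an ankyrin-repeat gene known as a HIF target, was at 57.05, 42.93, 52.99 and 50.54 CPM against 19.66, 26.65 and 19.36 CPM, a log2 fold change of -1.20 ± 0.15 (adjusted p = 0.00406). It shares 3.7% of its exon bases with Ufsp2 (18740 counts against 10442 of Ankrd37) and 22.7% with Lrp2bp (112 counts), which leaves its value uncertain to that extent. Egln1, the main HIF prolyl hydroxylase, was at 10.24 to 19.72 CPM against 8.13 to 10.16 CPM and did not pass (adjusted p = 0.242). Hif1a itself overlapped, at 475.4, 448.9, 508.5 and 407.1 CPM in Mock-LLC and 435.4, 367.6 and 384.6 CPM in SULT2B1b-LLC tumours. The 95% interval of the log2 fold change of Hif1a was -0.41 to 0.01 (adjusted p = 0.373), and RNA levels do not report the amount of HIF1A protein, which is set mainly by its degradation.

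Among the secreted products Mif fell and Vegfa and Adm did not pass. Mif, a cytokine that acts on macrophages, was at 246.7, 286.5, 244.8 and 228.3 CPM in Mock-LLC and 170.8, 185.8 and 174.4 CPM in SULT2B1b-LLC tumours (log2 fold change -0.49, adjusted p = 0.0249). Mif passed in 3 of the 7 fits with a library left out. Vegfa, the endothelial growth factor, was at 13.11, 12.59, 9.43 and 9.68 CPM against 11.10, 5.38 and 6.16 CPM, which overlap through tumour 2. Adm, the vasodilator adrenomedullin, was at 0.91 to 2.34 CPM against 0.44 to 1.00 CPM, a low level beside a floor of 3 counts, which is 0.0777 to 0.153 CPM in Ly6Clow libraries.

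P4ha1, a subunit of the hydroxylase that matures collagen, fell from 382.6, 395.1, 381.0 and 326.3 CPM to 275.2, 299.4 and 259.6 CPM (log2 fold change -0.40, adjusted p = 0.0465). P4ha1 passed in 1 of the 7 fits with a library left out. Its relative P4ha2 and Ero1l, the oxidase of disulfide formation, had groups that did not overlap but did not pass the test, at 7.93 to 10.19 CPM against 6.20 to 7.02 CPM and at 138.6 to 170.4 CPM against 85.81 to 130.2 CPM. None of the other 5 HIF targets passed the test. They were Ndrg1, Hilpda, which coats lipid droplets, the MYC antagonist Mxi1, the histone demethylase Kdm3a and Ddit4, an inhibitor of mTORC1. Their log2 fold changes were all below 0, from -0.90 for Ndrg1 (adjusted p = 0.079) to -0.33 for Kdm3a.

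**Figure D3:**
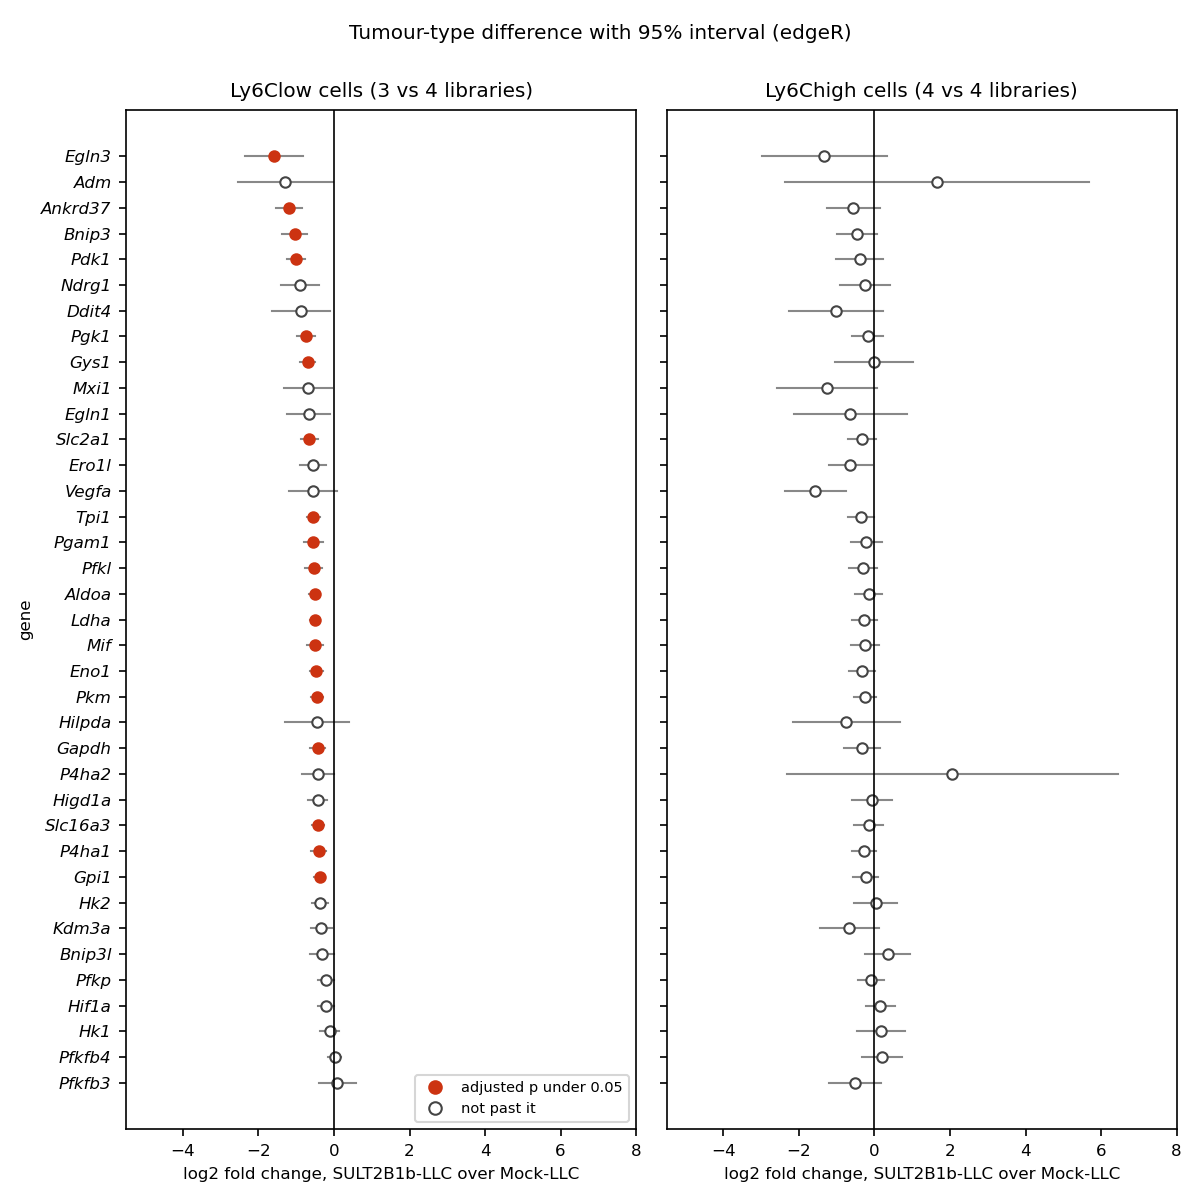
Fitted log2 fold change of SULT2B1b-LLC over Mock-LLC (points) with its 95% interval (lines) for each of the 37 genes, in Ly6Clow cells (left) and Ly6Chigh cells (right), each from a fit of that population alone. Filled points are the 19 genes with an adjusted p under 0.05, all in Ly6Clow cells, and the intervals in Ly6Chigh cells are wider.

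Promoter sequence is shown for genes that fell, Pgk1, Ldha, Pdk1 and Bnip3, and for Pfkp as a glycolytic gene that did not pass the test. Each run is the 150 bases before an annotated start in RefSeq (GRCm38.p6), read 5′ to 3′ on the gene's strand, with capitals on ACGTG or GCGTG in either orientation (CACGT or CACGC when read on the other strand). They lie at chrX:106186950-106187099 (plus strand), chr7:46845654-46845803 (plus), chr2:71873074-71873223 (plus), chr7:138909507-138909656 (minus) and chr13:6648772-6648921 (minus).
Pgk1: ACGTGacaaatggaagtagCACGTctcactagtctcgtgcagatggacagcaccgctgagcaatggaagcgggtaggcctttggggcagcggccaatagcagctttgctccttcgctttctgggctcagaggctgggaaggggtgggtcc
Ldha: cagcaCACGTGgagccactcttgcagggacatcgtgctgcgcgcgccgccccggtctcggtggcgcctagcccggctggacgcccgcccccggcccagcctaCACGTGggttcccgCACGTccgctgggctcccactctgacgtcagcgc
Pdk1: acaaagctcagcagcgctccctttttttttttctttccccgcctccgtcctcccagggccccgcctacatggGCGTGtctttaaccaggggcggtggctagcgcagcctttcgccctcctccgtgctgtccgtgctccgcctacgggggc
Bnip3: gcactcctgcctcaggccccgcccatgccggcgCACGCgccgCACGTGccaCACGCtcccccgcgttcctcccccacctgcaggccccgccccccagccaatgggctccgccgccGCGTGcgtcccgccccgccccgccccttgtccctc
Pfkp: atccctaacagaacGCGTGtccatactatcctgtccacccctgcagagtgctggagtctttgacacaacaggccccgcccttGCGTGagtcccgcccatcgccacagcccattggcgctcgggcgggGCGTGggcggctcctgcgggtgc
These stretches held 2 such cores in Pgk1, 3 in Ldha, 1 in Pdk1, 4 in Bnip3 and 3 in Pfkp, with CACGTG, which reads ACGTG on both strands, counted once.

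Promoter windows from 250 bases before to 50 after a start were found for 35 of the 37 genes. At any annotated start, 71.4% of these 35 held ACGTG, against 21.8% of 27025 genes, and 91.4% held ACGTG or GCGTG, against 46.7%. Genes known as HIF targets were chosen for the list, so this share describes the choice of genes. A core was held by 16 of the 19 that fell in Ly6Clow cells and by 16 of the 16 others with a window. Since nearly all held one, these counts cannot show whether cores go with the falls. The others were not an unchanged set either, as the log2 fold change was below 0 for 35 of the 37 genes. The windows of Gpi1, Tpi1 and Gys1, which fell, held neither sequence.

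In Ly6Chigh cells none of the 37 genes passed the test between tumour types. With edgeR 0 rose and 0 fell over 11655 genes tested, of which 0.0257% passed in either direction, all of them higher, and at an unadjusted p under 0.05 there were 3 of the 37, Vegfa, Ero1l and Tpi1, all lower, against 7.46% of all genes. The fitted log2 fold change was below 0 for 30 of the 37, with a median of -0.27 against 0.02 over all genes. All 4 SULT2B1b-LLC libraries lay below all 4 Mock-LLC libraries for 3 of the 37, Vegfa, Egln3 and Pfkfb3, against 3.03% of all genes, and above them for 0 of the 37, against 3.17%.

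Vegfa had the smallest p of the 37 in Ly6Chigh cells. It was at 22.78, 31.16, 38.23 and 25.26 CPM in Mock-LLC and 10.98, 10.46, 7.87 and 10.06 CPM in SULT2B1b-LLC tumours 1 to 4. The lowest Mock-LLC library was thus above the highest SULT2B1b-LLC library, and the log2 fold change was -1.56 ± 0.36 with an adjusted p of 0.18. It passed with DESeq2 (log2 fold change -1.57, adjusted p = 0.00686) and with the spread shared over all 15 libraries (-1.58, adjusted p = 0.0255). Vegfa (chromosome 17, 46016993 to 46032369) was highest in Mock-LLC Ly6Chigh cells of all 4 groups.

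Of the 19 genes that fell in Ly6Clow cells, all but Egln3 overlapped between tumour types in Ly6Chigh cells. Ldha was at 1667, 2025, 1549 and 1376 CPM in Mock-LLC and 1184, 1461, 1314 and 1503 CPM in SULT2B1b-LLC tumours. These overlap, and the 95% interval of the log2 fold change of Ldha, -0.59 to 0.06, holds both 0 and the -0.51 of Ly6Clow cells. Pdk1 was at 108.0, 57.95, 85.16 and 106.6 CPM against 61.72, 76.65, 41.88 and 90.20 CPM, with an interval of -1.01 to 0.23. Pgk1 was at 156.6 to 220.5 CPM against 124.9 to 189.6 CPM, with an interval of -0.58 to 0.23. That interval overlaps the one of Pgk1 in Ly6Clow cells, -0.99 to -0.50. Bnip3 was at 47.53, 63.79, 59.74 and 55.23 CPM against 37.86, 51.72, 38.58 and 34.42 CPM, overlapping through tumour 2 of SULT2B1b-LLC. Egln3 was at 32.36 to 45.45 CPM in Mock-LLC and at 29.16, 26.78, 1.27 and 5.50 CPM in SULT2B1b-LLC tumours 1 to 4, so that the first pair lay just under Mock-LLC and the others far below it. P4ha2 and Adm had the largest positive log2 fold changes, 2.06 and 1.65, but P4ha2 was at 0 in 3 of the 4 Mock-LLC libraries and Adm at 0 in Mock-LLC tumours 1 and 3 and in SULT2B1b-LLC tumour 1, and their 95% intervals ran from -2.32 to 6.43 and from -2.38 to 5.67. Leaving out any 1 of the 8 Ly6Chigh libraries, that of SULT2B1b-LLC tumour 1 among them, left the count at 0.

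Whether the tumour-type difference itself differed between the populations was tested by the interaction, with the spread shared over all 15 libraries. None of the 37 passed (0 of 37 with edgeR and with DESeq2), where 0.0145% of 13800 genes did. At an unadjusted p under 0.05 there were 4 of the 37, against 7.14% of all genes. The 4 were Pgk1, Bnip3 and Bnip3l, with a difference more positive in Ly6Chigh cells, and Vegfa, more negative there (log2 difference -1.01, 95% interval -1.99 to -0.03, adjusted p = 0.678). The falls in Ly6Clow cells are therefore not shown to be particular to that population. The median log2 difference was 0.25 over the 37 and 0.05 over all genes.

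**Figure D4:**
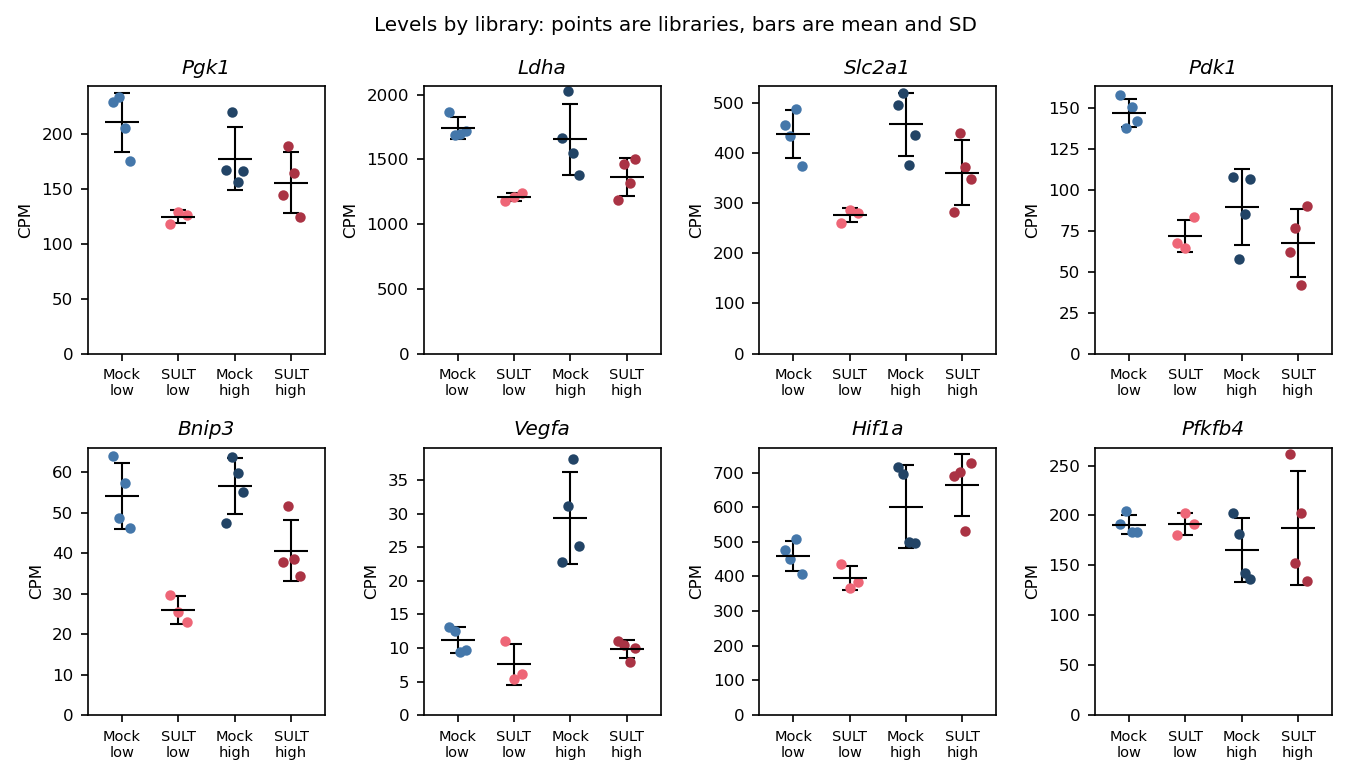
Level in CPM of 8 genes in each library (points), with mean and SD (bars), in the 4 groups: Mock-LLC and SULT2B1b-LLC (SULT) Ly6Clow (low) and Ly6Chigh (high) cells. Pgk1, Ldha, Slc2a1, Pdk1 and Bnip3 are lower in SULT2B1b-LLC Ly6Clow cells with no overlap, Vegfa is highest in Mock-LLC Ly6Chigh cells, Hif1a has its highest means in Ly6Chigh cells, and Pfkfb4 overlaps in all groups.

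Between populations, Ly6Chigh cells of Mock-LLC tumours had less RNA of several enzymes and more Vegfa than Ly6Clow cells. Of the 37 genes 1 was higher and 4 were lower at an adjusted p under 0.05, where 3.55% of all genes were higher, 4.86% lower and 8.41% passed in either direction. The groups did not overlap for 2 of the 37 in the higher direction, Vegfa and Pfkfb3, and for 11 in the lower, against 6.46% and 15.8% of all genes. Vegfa was at 22.78 to 38.23 CPM in Ly6Chigh and 9.43 to 13.11 CPM in Ly6Clow cells (log2 fold change 1.39 ± 0.32, adjusted p = 0.0133). Eno1 was at 908.0, 1141, 1057 and 943.5 CPM in Ly6Chigh against 1509 to 1626 CPM in Ly6Clow cells, a log2 fold change of -0.62 ± 0.12 (adjusted p = 0.00622). Gpi1, Hk1 and Aldoa were also lower, with adjusted p of 0.0206, 0.0453 and 0.0488. Gys1, at 8.39, 34.88, 39.11 and 37.94 CPM against 59.15 to 64.95 CPM, and P4ha2, at 0 in 3 libraries and 3.53 CPM in the other against 7.93 to 10.19 CPM, lay wholly below without passing the test. Ldha, Slc2a1 and Bnip3 overlapped between the populations of Mock-LLC tumours. By the labels, both populations of a number were sorted from the same numbered tumour, and with the tumour as a block 3 of the 37 passed (Vegfa, Eno1 and Aldoa). Leaving out the Ly6Clow library of Mock-LLC tumour 3, or the Ly6Chigh library of tumour 1, gave a count of 1, and leaving out that of Ly6Clow tumour 1, 2 or 4 gave 2. It was 3 without the Ly6Chigh library of tumour 2 or 3.

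In SULT2B1b-LLC tumours 1 of the 37 genes differed between populations, Hif1a, which was higher in Ly6Chigh cells. Of all genes 1.1% were higher, 1.54% lower and 2.64% passed in either direction. The 1 of 37 is near that share and does not set the list apart from other genes. Hif1a (chromosome 12, 73901375 to 73947530) was at 691.0, 702.3, 531.6 and 728.5 CPM in Ly6Chigh and 435.4, 367.6 and 384.6 CPM in Ly6Clow cells, with no overlap (log2 fold change 0.74 ± 0.16, adjusted p = 0.0164). Without the Ly6Clow library of tumour 3 or of tumour 4 no member passed. In Mock-LLC tumours Hif1a was at 717.1, 694.6, 499.3 and 495.2 CPM in Ly6Chigh against 407.1 to 508.5 CPM in Ly6Clow cells, where the ranges met and the adjusted p was 0.112. Of the 37 genes 4 had groups apart in the higher and 2 in the lower direction (5.57% and 13.9% of all genes). Besides Hif1a, Bnip3, Ndrg1 and Higd1a lay wholly higher in Ly6Chigh than in Ly6Clow cells of SULT2B1b-LLC tumours without passing the test, with log2 fold changes of 0.65, 0.95 and 0.40. The population comparisons share their Ly6Clow libraries with the tumour-type comparison in Ly6Clow cells.

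Levels of isoenzymes were compared per kb of exon. The length was that of all annotated exons of a gene merged, which need not be that of the RNA present. It was 8532 bases for Hk1 against 3682 for Hk3, and 7779 for Pdk1 against 2561 for Pdk3. Shares and rankings within a family depend on these lengths. Of lactate dehydrogenase RNA, Ldha made up 99.4% ± 0.137 (SD, n = 4) in Mock-LLC and 97.7% ± 0.084 (n = 3) in SULT2B1b-LLC Ly6Clow cells. The remainder was Ldhb, the heart-type subunit, at 5.18 ± 1.21 and 13.6 ± 0.374 CPM, which rose with a log2 fold change of 1.41 ± 0.22 (adjusted p = 0.0116). Of the pyruvate dehydrogenase kinases, Pdk1 made up 52.7% ± 4.50 in Mock-LLC and 31.1% ± 1.57 in SULT2B1b-LLC Ly6Clow cells, and Pdk3 36.0% ± 4.89 and 52.7% ± 2.81. Slc2a1 made up 66.3% ± 4.90 and 50.5% ± 1.07 of the RNA of Slc2a1, Slc2a3 and Slc2a6. Of the hexokinases, Hk3 was the most abundant per length in all 4 groups, at 48.8% ± 2.25 in Mock-LLC and 58.7% ± 4.58 in SULT2B1b-LLC Ly6Clow cells.

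Of 101 related genes outside the 37 tested between tumour types in Ly6Clow cells, 6 passed (5.94%), where 2.88% of all genes did. Of 19 other glycolysis genes tested, Ldhb rose and the monocarboxylate transporter Slc16a1 fell (log2 fold change -0.90, adjusted p = 0.0237), and the median was 0.12. Of 14 glycogen genes 3 fell, Gys1 among them, with Pgm2, a phosphoglucomutase, and Ppp1r3b, which targets a phosphatase to glycogen (log2 fold changes -0.54 and -0.70). None of 9 pentose phosphate genes, 12 genes of pyruvate entry and oxidation or 14 HIF regulators passed. Of 34 other HIF targets 2 fell, Gpr35 and Anxa2, 27 were below 0 and the median was -0.25. In Ly6Chigh cells 0 of 94 passed between tumour types with edgeR, where 0.0257% of all genes did.

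Between populations of Mock-LLC tumours 16 of the 101 related genes passed (15.8%), where 8.41% of all genes did. Slc2a3, Slc2a6 and Adpgk of the 19 other glycolysis genes were lower in Ly6Chigh cells, as were G6pdx, Pgd and Taldo1 of the 9 pentose phosphate genes and Pygl and Pygb of the 14 glycogen genes. Of the HIF regulators Cited2 and Ep300 were higher and Elob and Os9 lower, and of the other HIF targets Nampt and Gpr35 were higher and Plod1 and Mt1 lower. In SULT2B1b-LLC tumours 6 passed (5.94%, against 2.64% of all genes): Slc2a6 and Taldo1 were lower, and Ep300, Stc1, Nampt and Gpr35 higher, in Ly6Chigh cells.

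SULT2B1b-LLC tumour 2 stood above tumours 3 and 4 for several hypoxia genes in both populations. Hilpda was at 62.67, 21.16 and 24.43 CPM in Ly6Clow cells of tumours 2, 3 and 4 and at 123.0, 16.24 and 26.54 CPM in their Ly6Chigh cells. Ero1l was at 130.2, 86.77 and 85.81 CPM and at 149.9, 85.03 and 98.08 CPM, Egln3 at 19.12, 11.72 and 5.67 CPM and at 26.78, 1.27 and 5.50 CPM, and Pfkfb3 at 165.4, 87.72 and 96.97 CPM and at 159.6, 46.96 and 135.3 CPM. Over the 37 genes tumour 2 was highest of these tumours in both populations for 9, tumour 3 for 7 and tumour 4 for 5. In Mock-LLC tumours the same count was 3 for tumour 1, 7 for tumour 2, 1 for tumour 3 and 0 for tumour 4. The 9, 7 and 5 do not set SULT2B1b-LLC tumour 2 apart over the list, and no such count was made over all genes. The genes named here and SULT2B1b-LLC tumour 2 were picked after their values were seen, and no test was made.

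**Figure D5:**
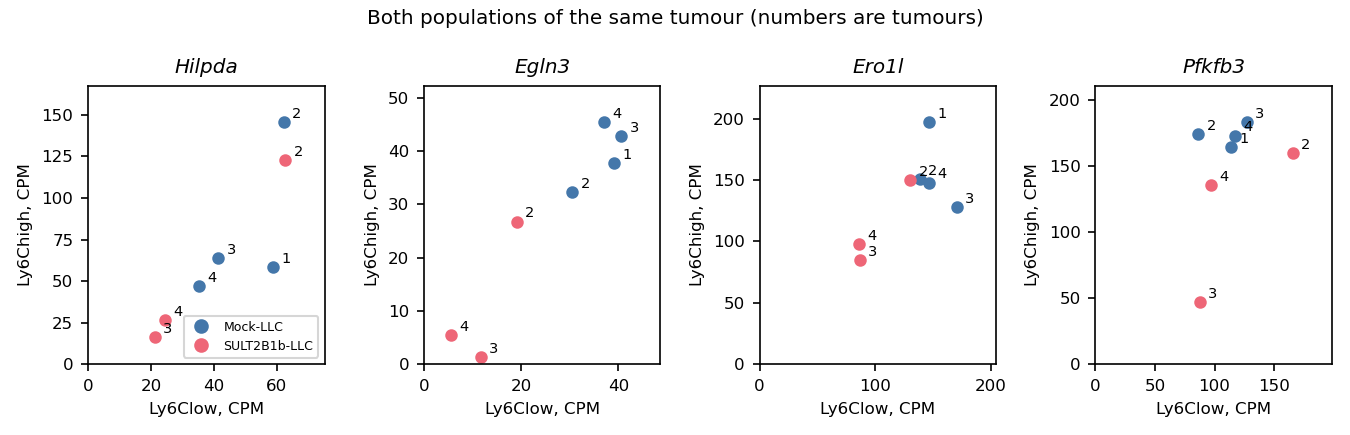
Level in Ly6Chigh cells (vertical, CPM) against level in Ly6Clow cells (horizontal, CPM) of the same tumour for Hilpda, Egln3, Ero1l and Pfkfb3, each point being a tumour with its number. SULT2B1b-LLC tumour 2 lies up and to the right of SULT2B1b-LLC tumours 3 and 4 in every panel.

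Markers of several cell types moved with tumour type in Ly6Clow cells. The summed level of 10 macrophage markers was 11830 to 13780 CPM in Mock-LLC and 17280 to 17610 CPM in SULT2B1b-LLC Ly6Clow cells, with Adgre1, C1qa, C1qb and Csf1r higher by the test. Eosinophil markers summed to 443.0 to 578.6 CPM and 659.5 to 827.9 CPM, with 3 of 8 tested higher (Siglecf, Prg2 and Alox15). Neutrophil markers summed to 507.1 to 799.7 CPM and 605.5 to 746.6 CPM, with 1 of 8 tested higher (Csf3r), and Ly6g, which defines neutrophils, was at 0 in the SULT2B1b-LLC Ly6Clow libraries. Epithelial or carcinoma markers, which tumour cells could bring, summed to 92.54 to 145.0 CPM and 57.09 to 102.8 CPM with 0 of 6 passing, and fibroblast markers to 144.1 to 320.6 CPM and 52.45 to 150.3 CPM with 1 of 7 lower (Lum). Monocyte markers summed to 2517 to 3077 CPM and 2134 to 2474 CPM, with 1 of 7 tested lower, Vcan (log2 fold change -1.89). B cell markers summed to 4.897 to 6.732 CPM and 12.68 to 17.18 CPM with 1 of 3 tested higher (Cd79b). Erythroid markers summed to 1.114 to 38.98 CPM and 0 to 1.426 CPM with 0 of 3 passing. Conventional dendritic cell, T and NK cell and endothelial markers had 0 passing, with sums of 239.8 to 267.8 against 280.7 to 369.1 CPM, 0.285 to 1.91 against 2.079 to 5.596 CPM and 23.05 to 31.84 against 36.92 to 45.67 CPM. In Ly6Chigh cells macrophage markers summed to 6373 to 7128 CPM in Mock-LLC and 8349 to 11010 CPM in SULT2B1b-LLC tumours, and fibroblast markers to 131.4 to 723.3 CPM and 646.7 to 1518 CPM. By the edgeR test 1 of 10 macrophage markers was higher there, C1qa (adjusted p = 0.0352), and 0 of 6 fibroblast markers passed. Markers also differed between the populations. In Mock-LLC tumours eosinophil markers summed to 3.715 to 55.3 CPM in Ly6Chigh cells, with 6 of 7 tested lower than in Ly6Clow cells, 7 of 10 macrophage markers were lower, and 5 of 8 monocyte markers (4262 to 6380 CPM against 2517 to 3077 CPM) and 4 of 9 conventional dendritic cell markers (406.2 to 623.0 CPM against 239.8 to 267.8 CPM) were higher. In SULT2B1b-LLC tumours 5 of 7 eosinophil and 6 of 10 macrophage markers were lower, and 4 of 8 monocyte and 3 of 9 conventional dendritic cell markers higher, in Ly6Chigh cells. Of 7 fibroblast markers, 1 was higher there in Mock-LLC (Col1a1) and 3 in SULT2B1b-LLC tumours (Dcn, Lum and Col3a1). Of 7 neutrophil markers tested, Retnlg was lower there in both tumour types and Csf3r higher in Mock-LLC tumours. Of 4 epithelial or carcinoma markers tested, Krt8 and Cdh1 were lower there in Mock-LLC tumours and 0 passed in SULT2B1b-LLC tumours. The part of these cells in the differences of the hypoxia and glycolysis genes was not tested.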

How the data were processed

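The authors deposited raw counts of reads for each gene symbol and library; whole numbers with unequal column totals show that no normalization was applied. Per the submitters' processing notes, STAR 2.5.3a, featureCounts and limma were used, on mm10 (GRCm38). Annotation release and counting options: not given in the sources used here. Per the labels' protocols, the SMART-Seq v4 kit was used with single-end reads. The kit does not mark strand. Of the 50508 symbols 15730 had no count.

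Counts were tested with edgeR 4.0.16 (R 4.3.3), with filterByExpr, TMM factors, robust quasi-likelihood fits, two-sided tests and Benjamini-Hochberg adjustment over all genes tested in a comparison, at an adjusted p under 0.05. Tumour types were compared in a fit of each population alone, and populations and the interaction in a fit of all 15 libraries. Tests were run on simulated data first. Levels are CPM on TMM-adjusted library sizes. Levels per length divide by the length in kb of all annotated exons of a gene merged, from GENCODE M21 on GRCm38. Positions are 1-based. Near-identical copies are other annotated genes with a transcript that matches the member's longest transcript at 95% identity or more over 75 bases or more. Copies outside the annotation were not searched for. P-values reflect only the spread among these samples, and floors of 3 counts cover counting error only. Every replicate pair differed by more than sampling noise, with a chi-square of 22.88 to 104.2 for each degree of freedom.

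By the labels' descriptions, same-numbered libraries of a tumour type were sorted from the same numbered tumour. Their deviations from group means correlated at r = 0.0344 to 0.0839 in Mock-LLC and 0.0328 to 0.109 in SULT2B1b-LLC. Libraries of different numbers correlated at -0.0827 to 0.0552 and -0.0815 to 0.0453. These ranges overlap, so the pairing rests on the labels alone. The members and the other gene lists were chosen with earlier results of these data known. Values per library or their ranges are given for most members that passed a tumour-type test and for examples per role. They are also given for most of the 3 members per direction with the largest change in each comparison. Of the other lists the genes that passed are named. Alternatives were other scaling factors, no filter, DESeq2 1.42.0, limma-voom with quality weights (limma 3.58.1), replicate blocks, other sets of libraries fitted, thinned counts and each library left out.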

Additional observations from a re-analysis of the deposited data

Results flagged for a closer look

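In 7 of the 111 combinations of gene and group of 4 libraries, the extreme library lay farther from the others, as a share of the group's range, than Dixon's 95% critical value for 4 values. Chance alone gives about 1 in 20 such groups. In Ly6Clow cells the one case was Gpi1, at 750.9 CPM in Mock-LLC tumour 4 and 840.5 to 855.4 CPM in the others. In Ly6Chigh cells of Mock-LLC tumours, Gys1 was at 8.394 CPM in tumour 1 and 34.88 to 39.11 CPM in the others, Mif at 267.6 CPM in tumour 2 and 176.2 to 190.5 CPM in the others, and P4ha2 at 3.531 CPM in tumour 4 and 0 in the others. In Ly6Chigh cells of SULT2B1b-LLC tumours, Hilpda was at 123 CPM in tumour 2 and 16.24 to 26.54 CPM in the others. Egln1 was at 10.11 CPM in tumour 2 and 5.68 to 6.218 CPM in the others, and Ankrd37 at 44.92 CPM in tumour 3 and 21.96 to 24.48 CPM in the others.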

How the results depend on the processing

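In Ly6Clow cells 19 genes fell between tumour types, and the count was 2 with a replicate block, in which Pdk1 and Ankrd37 passed (0.706% of all genes passed), and 2 with a fit of all 4 groups (0.638%). Tumours of the different types share only a number (correlations of deviations -0.104 to 0.0432 in Ly6Clow cells). It was 18 with median-ratio factors, 19 with no scaling factors or no filter, 23 with DESeq2 (6.29% of all genes) and 20 with limma-voom and quality weights (3.36%). With each library left out in turn it ran from 9 to 18, and Pdk1, Ldha, Aldoa, Tpi1, Gys1, Bnip3 and Ankrd37 passed each time. Counts printed without a share of all genes, here and elsewhere, do not show whether members lost more calls than other genes. The log2 fold change of Pfkfb3 ran from -0.23 without SULT2B1b-LLC tumour 2 to 0.27 without tumour 3 and was -0.01 without Mock-LLC tumour 2. That of Pfkfb4 was -0.0076 with no scaling factors and ran from -0.0082 without SULT2B1b-LLC tumour 3 to 0.077 without tumour 2. In Ly6Chigh cells DESeq2 and the fit of all 4 groups each gave 1 gene, Vegfa (1.52% and 1.62% of all genes), and every library left out gave 0.

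For Ly6Chigh against Ly6Clow cells in Mock-LLC tumours, with 5 in the reported fit, the count was 3 with median-ratio factors (7.61% of all genes), with no scaling factors (8.1%) or with the tumour as a block (6.39%), 0 without a filter (1.74%), 9 with limma-voom and quality weights (10.9%) and 2 with counts thinned to the smallest library (9.03%), and 1 to 4 with a library left out. Median-ratio factors moved the median over all genes from -0.08 to 0.05 there and that of the 37 genes from -0.22 to -0.09. In SULT2B1b-LLC tumours, with 1 in the reported fit, it was 0 without a filter (0.587%), 5 with DESeq2 (6.43%), 2 with limma-voom and quality weights (5.21%) and 0 to 1 with a library left out, and the replicate block left 1 (1.47%). The interaction gave 0 under every alternative run. The median log2 fold change of the 37 ran from -0.54 to -0.47 in Ly6Clow and from -0.31 to -0.20 in Ly6Chigh cells over the libraries left out. Without a filter the median over all genes moved to 0.64 between tumour types in Ly6Chigh cells and to 0.61 in the interaction, from 0.02 and 0.05, and that of the 37 in Ly6Chigh cells was -0.28. The causes were not tested.

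Depth limits the Ly6Chigh values most, where 3 counts correspond to 0.272 to 1.14 CPM.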
